A study of Mus musculus with 9 samples.

Results

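Egr1, Egr2, Egr3 and Egr4 encode the EGR zinc finger transcription factors, and Nr4a1, Nr4a2 and Nr4a3 encode the NR4A orphan nuclear receptors. The 7 genes were taken by symbol from the 23607 genes listed for every mouse. 5 of the 7 (Egr1, Egr2, Egr4, Nr4a1 and Nr4a2) had enough counts to be tested, Egr3 was near the limit of detection, and no count fell on Nr4a3 in any mouse. The counts came from the olfactory epithelium (OE) of 9 C57BL/6 mice. Each mouse rested for 1 hr without odor and was then exposed for 1 hr, in a closed container, to 10 µl of distilled water (control), of 1% heptanal or of 100% heptanal on filter paper. Heptanal is an odorous straight-chain aldehyde. There were 3 mice per group, 1 at each of postnatal days 22, 21 and 18, and the study's methods state that mice of 1 replication were littermates of the same sex. Ribosomes carrying phosphorylated S6 (pS6), a modification that increases in active neurons, were immunoprecipitated from the tissue (pS6-IP) and the mRNA bound to them was sequenced. The unprecipitated RNA was not analysed here, so that a change in a gene's mRNA and a change in the share of its mRNA on pS6 ribosomes cannot be told apart.

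Both families are immediate early genes. Their transcription starts within minutes of calcium, cAMP or growth factor signaling without the need for new protein, through factors such as CREB, which binds the cAMP response element (CRE), and SRF with its ELK partners, which bind the CArG box. EGR proteins bind GC-rich sites and are held in check by the corepressors NAB1 and NAB2. NR4A proteins act without a known natural ligand, as monomers, as dimers or together with retinoid X receptors (RXRs). Egr1 and Nr4a1 are widely used as readouts of recent neuronal activity, and EGR1 and NR4A1 are found in olfactory sensory neurons (OSNs) after odor stimulation.

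The upstream DNA of some members is shown because it holds the 5-base core of the CRE, an element known to link neuronal activity to transcription. Upstream windows at RefSeq start sites (GRCm38.p6, the build called mm10) were examined for 5 of the 7 members. Those of Egr1 and Egr3 were not examined, so the matches below say nothing about these genes. The sequences below are the 250 bases upstream of a start of Nr4a1 (chr15:101266596-101266845, plus strand), Nr4a2 (chr2:57124004-57124253, minus strand) and Egr4 (chr6:85513590-85513839, minus strand), and 30 bases beside a start of Egr2 (chr10:67537793-67537822, plus strand), each written 5′ to 3′ on the gene's strand. Capitals mark the CRE core CGTCA, or TGACG where it lies on the other strand, and in Egr2 also a CArG box.
Nr4a1: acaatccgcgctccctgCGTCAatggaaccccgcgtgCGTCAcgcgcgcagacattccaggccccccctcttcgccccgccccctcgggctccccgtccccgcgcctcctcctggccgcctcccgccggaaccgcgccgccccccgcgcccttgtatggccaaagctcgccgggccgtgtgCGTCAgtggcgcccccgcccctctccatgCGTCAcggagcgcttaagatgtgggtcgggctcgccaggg
Nr4a2: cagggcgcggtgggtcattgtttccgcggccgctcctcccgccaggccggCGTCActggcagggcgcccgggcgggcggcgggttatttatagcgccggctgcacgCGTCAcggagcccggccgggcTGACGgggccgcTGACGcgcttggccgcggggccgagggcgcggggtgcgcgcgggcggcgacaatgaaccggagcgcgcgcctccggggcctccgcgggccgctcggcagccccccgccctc
Egr4: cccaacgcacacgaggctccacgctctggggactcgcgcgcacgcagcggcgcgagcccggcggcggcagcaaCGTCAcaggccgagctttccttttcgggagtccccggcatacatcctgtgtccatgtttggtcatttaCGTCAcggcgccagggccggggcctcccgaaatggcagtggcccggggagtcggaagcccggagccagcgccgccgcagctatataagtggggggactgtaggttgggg
Egr2: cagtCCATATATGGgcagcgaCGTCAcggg

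The CRE core stood 4 times upstream of Nr4a1, 4 times upstream of Nr4a2 and 2 times upstream of Egr4. Over the 32851 upstream windows of 250 bases from all listed starts, 17.8% held the core at least once on either strand. In 3.90% it stood 2 times or more and in 0.137% 4 times or more. Windows of 1 gene can overlap, and these shares were not matched to the members' windows in base composition. The full palindrome TGACGTCA, which contains the core on both strands, was in 1.55% of all windows and in 0 of the members' windows examined. The CArG box was in 1.47% of all windows. The bases shown for Egr2 held a CArG box and a CRE core within 30 bases. They were chosen for these matches from 5 annotated Egr2 starts, of which the most upstream had neither match in its window. The window they come from is largely exonic, with 203 of its 250 bases in annotated exons, so they are not upstream of every Egr2 transcript. The window of Nr4a3, which has 227 exonic bases and is not shown, also held the core 4 times. The Nr4a1 window also held 1 copy of GCGGGGGCG, an EGR site, which was in 2.57% of all windows. These matches are descriptions of the letters and not evidence of binding.

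Egr1 encodes the founding member of the EGR family. The gene lies on chromosome 18 from 34859823 to 34864984 on the plus strand, is annotated as protein coding and overlaps no other annotated gene. In CPM, counts scaled to each library's size and composition with TMM factors, Egr1 stood in the control mice at 31.4 on day 22, 25.4 on day 21 and 71.3 on day 18. In the mice exposed to 1% heptanal the 3 values were 36.9, 38.2 and 47.7 CPM, in the same order of days. In the mice exposed to 100% heptanal they were 261, 249 and 452 CPM. All 3 mice at 100% lay far above every other mouse, while the 1% mice lay within the range of the controls. These levels rested on 180 to 564 counts in the control mice and 1777 to 3969 counts at 100% heptanal, and only 1 of all Egr1 counts came from a read reassigned among several genes.

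Egr1 rose 7.87-fold at 100% heptanal against control (log2 fold change 2.98, SE 0.21, edgeR adjusted p = 0.00136). It ranked number 3 by p among the 14930 genes tested. Within the littermates of each day, the Egr1 level was 8.18-fold higher on day 22, 9.65-fold on day 21 and 6.30-fold on day 18 (ratios of CPM + 0.5). Against 1% heptanal the rise was 7.53-fold (log2 fold change 2.91, SE 0.21, edgeR adjusted p = 0.00413), and Egr1 had the lowest p of all genes in that comparison. At 1% against control the difference in Egr1 was 0.06 on the log2 scale (SE 0.21, edgeR adjusted p = 1.00), with 2 of 3 days higher. The calls used the postnatal day as a block, and without that block the fold change was 2.91 on the log2 scale with an edgeR adjusted p of 0.145 against control, and 2.97 with 0.153 against 1% heptanal.

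Nr4a1 encodes an NR4A receptor that is induced by activity in many neurons. It lies on chromosome 15 from 101254269 to 101274795 on the plus strand, and the bases with 4 CRE cores shown above lie inside this span, before an internal start and outside every annotated exon. Its level in the control mice was 77.1 CPM on day 22, 67.1 on day 21 and 109 on day 18. At 1% heptanal it was 83.5, 66.0 and 98.9 CPM. At 100% heptanal it was 273, 457 and 403 CPM. As for Egr1, the 100% mice did not overlap with the others, and the 1% and control mice overlapped. Unlike for Egr1, the highest mouse at 100% was the one of day 21.

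Nr4a1 rose 4.52-fold at 100% heptanal against control (log2 fold change 2.18, SE 0.22, edgeR adjusted p = 0.00695) and 4.57-fold against 1% heptanal (log2 fold change 2.19, SE 0.22, edgeR adjusted p = 0.00841). Within days its level was 3.52-fold higher than in control on day 22, 6.77-fold on day 21 and 3.67-fold on day 18. At 1% against control the log2 difference was -0.02 (SE 0.21, edgeR adjusted p = 1.00). Without the day as a block the edgeR adjusted p for Nr4a1 was 0.121 against control and 0.110 against 1% heptanal. With the block, the Nr4a1 call against control was lost when any single control mouse was left out (edgeR adjusted p of 0.118 without day 22, 0.0758 without day 21 and 0.0780 without day 18) and when any whole day was left out (0.0597, 0.0966 and 0.148, in the same order). The Egr1 call was lost only without the control mouse of day 22 (edgeR adjusted p = 0.0579), among the 12 such fits.

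**Figure D1:**
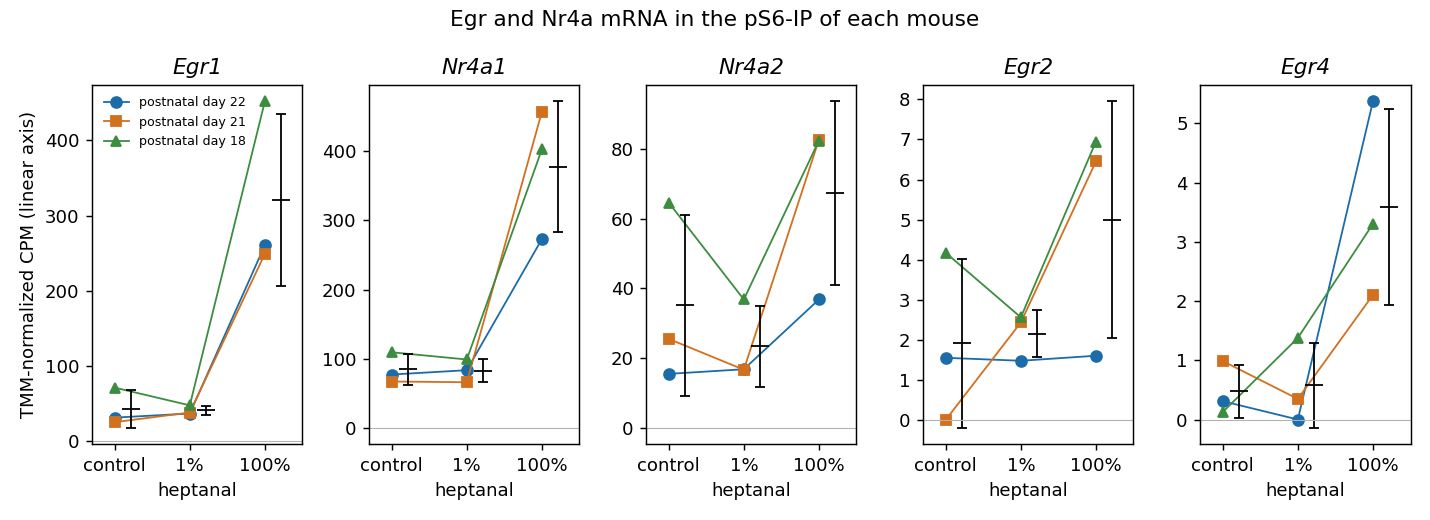
TMM-normalized CPM (linear axis, each panel with its own scale) of the 5 tested Egr and Nr4a genes in each of the 9 mice, by heptanal concentration; lines join littermates of 1 postnatal day and black bars are the group mean ± SD (n = 3). Egr1 at 100% heptanal stood at 249 to 452 CPM against 25.4 to 71.3 CPM in control, Nr4a1 at 273 to 457 against 67.1 to 109 CPM, and the Nr4a2 and Egr2 groups overlapped.

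Nr4a2 encodes the NR4A receptor known for its role in dopamine neurons. It lies on chromosome 2 from 57106830 to 57124003 on the minus strand. The control mice had 15.5, 25.5 and 64.6 CPM of Nr4a2 on days 22, 21 and 18, the 1% mice had 16.8, 16.7 and 36.8 CPM, and the 100% mice had 36.8, 82.6 and 82.3 CPM. The day 18 control mouse lay above the day 22 mouse at 100%, so the groups overlapped, but the 100% mouse was the highest of its littermates on each day. Of all genes tested, 18.4% were higher at 100% than in control on all 3 days, and 16.9% were higher than at 1%. The Nr4a2 difference at 100% against control was 1.10 on the log2 scale (SE 0.29, unadjusted p = 0.00457) and did not pass the adjustment over all genes (edgeR adjusted p = 0.217). Within days the ratio was 2.33 on day 22, 3.20 on day 21 and 1.27 on day 18. Against 1% heptanal the Nr4a2 difference was 1.55 (SE 0.30, edgeR adjusted p = 0.168). DESeq2 with the same block called Nr4a2 in both comparisons, with adjusted p of 0.0287 and 0.000322. At 1% against control the log2 difference was -0.45 (SE 0.29, edgeR adjusted p = 1.00), with 1 of 3 days higher.

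Egr4 and Egr2 were much scarcer. Egr4 encodes the most distant EGR protein, which lacks the NAB-binding region of the others, and lies on chromosome 6 from 85511121 to 85513589. It had 2, 7 and 1 counts in the control mice of days 22, 21 and 18, 0, 2 and 14 counts at 1% heptanal, and 47, 15 and 29 counts at 100% heptanal. The 100% mice held more Egr4 than every other mouse, also in CPM (2.10 to 5.37 against 0.126 to 0.986 in control and 0 to 1.38 at 1%). Egr4 passed the filter on low counts only with these 100% mice, so that its separation from the other groups depends in part on the filter. The log2 difference of Egr4 against control was 2.92, close to that of Egr1 in size but with an SE of 1.19 (edgeR adjusted p = 0.440), and against 1% heptanal it was 2.69 (SE 1.17, edgeR adjusted p = 0.473). The difference against control was 1.82 without the day 22 mouse at 100% heptanal and 4.28 without the day 21 control mouse.

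Egr2 encodes the EGR protein known from hindbrain segmentation and myelination, and lies on chromosome 10 from 67535475 to 67542188. It had 10, 0 and 33 counts in the control mice, 10, 14 and 26 at 1% heptanal and 14, 46 and 61 at 100% heptanal, in the order of days 22, 21 and 18. The control mouse of day 18 exceeded the 100% mouse of day 22, and on day 22 the 3 littermates were at 1.55, 1.47 and 1.60 CPM. The Egr2 difference of 1.49 on the log2 scale at 100% against control had an SE of 1.02 (edgeR adjusted p = 0.667). It was 0.54 without the control mouse of day 21, which had no count, and 2.35 without that of day 18. At 1% heptanal the log2 differences from control were 0.39 for Egr2 (SE 1.02) and 0.24 for Egr4 (SE 1.29), each with an edgeR adjusted p of 1.00.

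Egr3, which is induced along with Egr1 in brain and lymphocytes, had 9 counts over all mice. These were 4 in the control mouse of day 18, 2 and 1 in the 1% mice of days 18 and 21, and 1 each in the 100% mice of days 18 and 21. The remaining 4 mice had 0 counts. Nr4a3 had 0 counts in each of the 9 mice, which together allow a level of up to 0.0435 CPM (3 counts over all libraries, counting error only). That limit holds only if reads of Nr4a3 could be aligned and assigned to its gene model, which was not tested. In all, 3723 genes (15.8% of those listed) had 0 counts in every mouse. No response of Egr3 was detectable at this depth, and none of Nr4a3 in these counts, and no fold change is given for either.

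Of the 5 members tested, 2 passed the test at 100% heptanal against control, where 0.322% of all genes tested were called higher (48 genes) and 0 were called lower. The 2 members were also called against 1% heptanal, where 0.0804% of genes were called higher (12 genes). Egr1 and Nr4a1 did not overlap between 100% heptanal and control, a separation that 5.96% of genes tested showed with the 100% mice higher. They did not overlap between 100% and 1% heptanal either, against a background of 4.74%. Egr4 did not overlap in either comparison, but it passed the filter on low counts only with the 100% mice. Its separation was therefore not set against these shares. At 1% against control 0 members were called, and edgeR called 0% of all genes higher and 0% lower at this threshold, with 487 genes at an unadjusted p under 0.05. The paper, also with edgeR, reports odorant receptor mRNAs enriched at both concentrations, many more of them at 100%. The fit used here called 0 receptor (Olfr) genes at 1% and 8 at 100% against control, far fewer than the paper at each. The paper does not state over which genes its false discovery rate was taken. Here the adjustment ran over all genes tested, with the day as a block, so the counts are not like for like. The reason for this difference was not tested. The comparisons share mice, so that the agreement of 100% against control with 100% against 1% is not separate evidence. For the 1% group the estimates remained imprecise, most of all for Egr2 and Egr4, and an adjusted p near 1 does not show that a gene stayed the same.

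**Figure D2:**
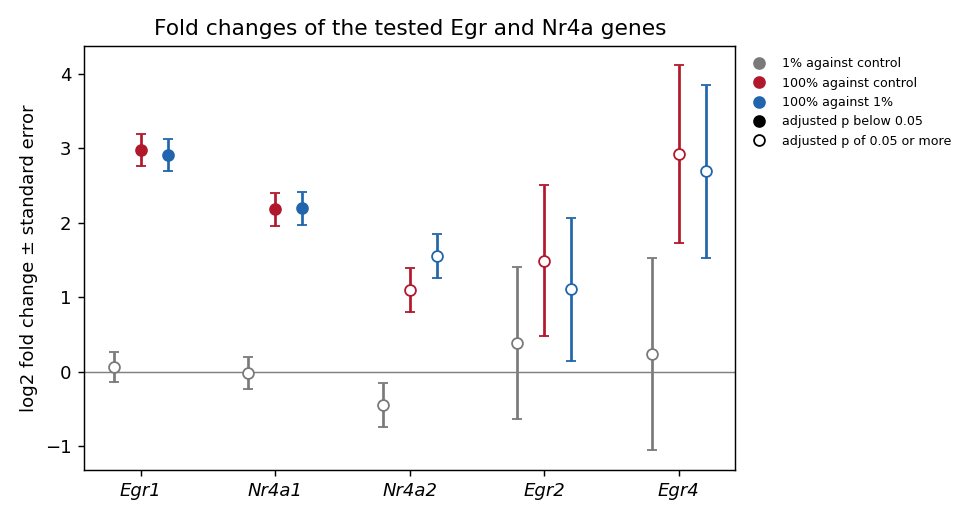
Log2 fold changes ± SE from the edgeR fit with postnatal day as a block, for 1% against control (grey), 100% against control (red) and 100% against 1% (blue); filled points passed an adjusted p of 0.05 over all genes tested. At 100% heptanal the estimates for Egr1 (2.98) and Egr4 (2.92) were alike in size, but the SE was 0.21 for Egr1 and 1.19 for Egr4.

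Levels were compared between members per kilobase of exon. The methods describe poly-T priming, and how evenly reads covered each gene was not tested. The order between members therefore holds for this scale only. In the control mice Nr4a1 was the most abundant member at 24.1 ± 6.29 CPM per kb (SD, n = 3), followed by Egr1 at 9.52 ± 5.56 and Nr4a2 at 8.67 ± 6.39, and these last 2 did not differ beyond their spread. Egr2 at 0.561 ± 0.620 and Egr4 at 0.221 ± 0.211 CPM per kb were likewise not separable. At 100% heptanal the order was Nr4a1 at 108 ± 27.0, Egr1 at 71.5 ± 25.4, Nr4a2 at 16.6 ± 6.50, Egr4 at 1.67 ± 0.770 and Egr2 at 1.47 ± 0.869 CPM per kb. Nr4a1 and Egr1 then overlapped in their spread, and so did Egr4 and Egr2, whereas Nr4a2 lay below the lowest Egr1 value.

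The ratio of Egr1 to Nr4a1, in CPM per kb, was 0.319 on day 22, 0.296 on day 21 and 0.510 on day 18 in control mice. At 1% heptanal it was 0.346, 0.453 and 0.378, and at 100% heptanal 0.747, 0.427 and 0.878. In CPM not divided by length, the 100% ratios were 0.955, 0.545 and 1.12, so that Egr1 exceeded Nr4a1 on day 18. The ratio was above that of the control littermate on all 3 days at 100% heptanal, by 0.85 on the log2 scale (SD 0.35, n = 3). The two-sided exact sign-flip permutation test gave p = 0.25, the smallest value that this test can give with 3 pairs, so it could not have passed the threshold. On day 21 the ratio at 100% was lower than at 1%. In counts, Egr1 and Nr4a1 together made up most of the members' reads in every mouse, with Egr1 at 21.3 to 28.5% of them in control mice and 31.2 to 47.7% at 100% heptanal.

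The pS6-IP was made from the whole OE, which holds sustentacular, basal, gland and other cells beside OSNs. Fewer cells of a type, less RNA per cell and less capture of their ribosomes by the pS6-IP cannot be told apart. The summed level of 5 mature OSN markers (Omp, Adcy3, Ano2, Cnga2 and Gnal), all of them detected in each group, ranged from 4237 to 8713 CPM in control mice, 6154 to 8480 at 1% heptanal and 10558 to 14891 at 100% heptanal. Omp, the olfactory marker protein gene of mature OSNs, was itself called higher at 100% against control (log2 fold change 1.11, edgeR adjusted p = 0.0311), and the other 4 markers were not. Among the other marker lists, 0 genes were called at 100% against control. The sustentacular sum was 4561 to 5369 CPM in control and 5407 to 7622 CPM at 100% heptanal, the immune sum 67.4 to 109 and 41.2 to 86.4 CPM, and the red blood cell sum 1581 to 11331 and 961 to 7224 CPM. All 4 red blood cell genes had log2 differences below 0 (-0.71 to -0.97, unadjusted p of 0.00101 to 0.00349), of which Hba-a1 and Hba-a2 are near-identical copies with the same values. The Bowman gland genes lay below 0 in 4 of 4 (median -0.46), the basal cell genes in 5 of 6 (median -0.45), and the sustentacular genes above 0 in 5 of 5 (median 0.86). The immature OSN genes also lay above 0 in 5 of 5 (median 0.30). The medians of the microvillous, respiratory ciliated, immune, endothelial and ensheathing glia lists lay between -0.28 and 0.08. Each member was therefore also expressed per 1000 OSN marker counts, a scale that does not separate cell number, RNA per cell and capture.

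On that scale Egr1 stood at 8.36 ± 7.43 in control, 5.88 ± 1.68 at 1% and 27.2 ± 13.8 at 100% heptanal (SD, n = 3). The highest control mouse (16.8, day 18) then just exceeded the lowest 100% mouse (16.7, day 21), although within each day the 100% mouse was the highest. Nr4a1 stood at 15.5 ± 9.29, 12.0 ± 4.15 and 30.7 ± 7.48 per 1000 OSN marker counts. Its groups overlapped too, with 25.8 in the day 18 control mouse and 23.2 in the day 22 mouse at 100%. Nr4a2 stood at 6.94 ± 7.19, 3.47 ± 2.19 and 5.49 ± 2.34, and the high control average rested on the day 18 mouse (15.2). With libraries scaled to the OSN markers, the edgeR log2 fold change at 100% against control was 1.91 for Egr1 (adjusted p = 0.00197) and 1.13 for Nr4a1 (adjusted p = 0.00478). That scaling put Nr4a2 at 0.06 (edgeR adjusted p = 0.889). It also moved the median of all genes to -1.04, nearly as far as it moved the members, and turned the split of calls against control into 48 genes higher and 9694 lower. With 10435 genes at an unadjusted p under 0.05, against 1556 in the main fit, the adjustment over all genes was milder. The adjusted p values under this scaling are therefore not comparable with those of the main fit. The contribution of the other cell types to the member levels was not tested.

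**Figure D3:**
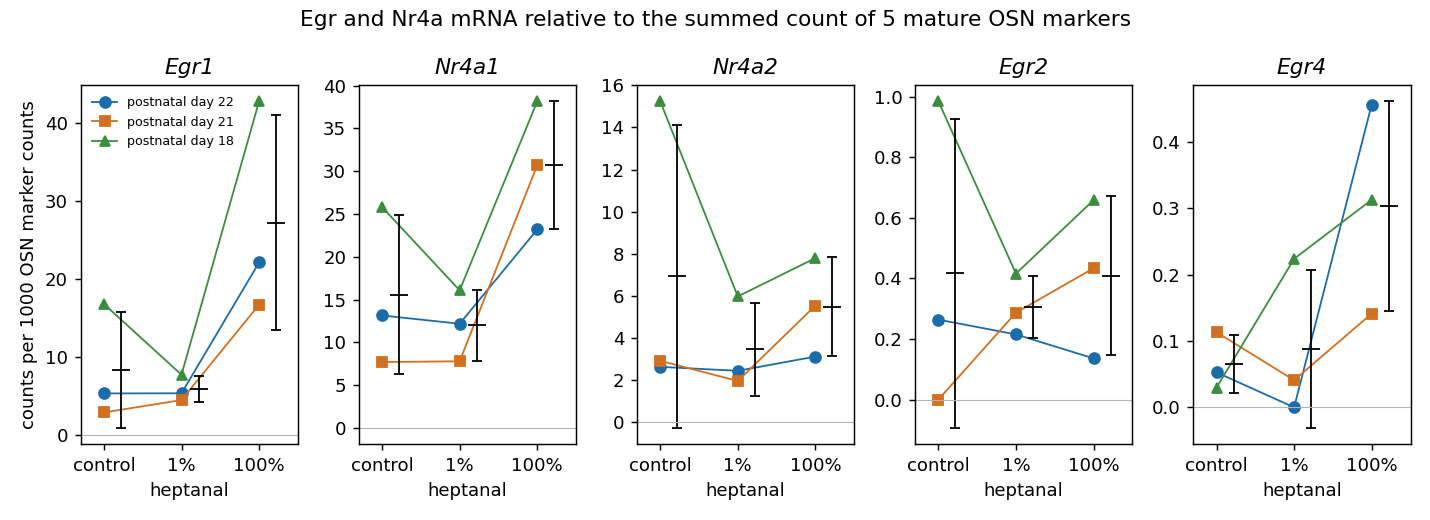
Counts of each tested member per 1000 counts of 5 mature OSN markers (linear axis, each panel with its own scale) in each mouse; lines join littermates and black bars are the group mean ± SD (n = 3). Egr1 and Nr4a1 remained highest at 100% heptanal on every day, at 27.2 and 30.7 on average, while Nr4a2 at 100% was above its control littermate on days 22 and 21 (3.13 against 2.64 and 5.55 against 2.93) and below it on day 18 (7.80 against 15.2).

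Other immediate early genes were measured in the same libraries. Of a list of 34, 33 were tested, 3 were called higher at 100% heptanal against control and 0 lower, with a median log2 fold change of 0.31 against 0.00 over all genes (-0.00221). The 3 were Fosb, Fos and Btg2. Fosb, a subunit of the AP-1 transcription factor, had 3.87, 2.40 and 1.77 CPM in the control mice of days 22, 21 and 18 and 88.9, 95.6 and 67.1 CPM at 100% heptanal, a log2 fold change of 4.98 (SE 0.32, edgeR adjusted p = 0.00136). Fos, another AP-1 subunit, rose by a log2 fold change of 2.72 (SE 0.26, edgeR adjusted p = 0.00680), between those of Egr1 and Nr4a1. Btg2, an antiproliferative gene, went from 76.8 ± 20.5 CPM to 254 ± 22.1 CPM (SD, n = 3), a log2 fold change of 1.76 with an edgeR adjusted p of 0.00695. Junb, an AP-1 subunit, stood next by p (log2 fold change 0.99, edgeR adjusted p = 0.0697). At 1% heptanal 0 of the 33 were called, and Fosb had the values 6.49, 6.60 and 8.86 CPM, each above its control littermate (log2 fold change 1.51, edgeR adjusted p = 1.00). Of all genes tested, 11.5% were higher at 1% than in control on all 3 days.

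**Figure D4:**
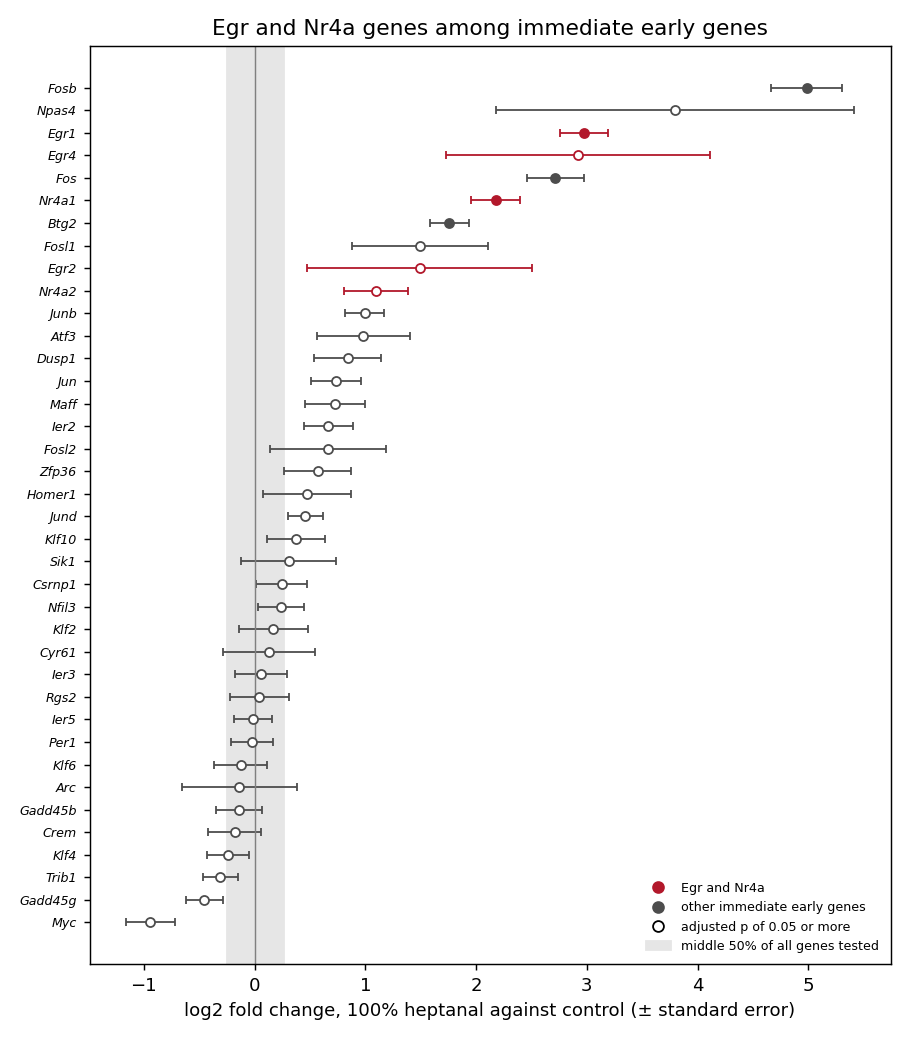
Log2 fold change ± SE at 100% heptanal against control for the 5 tested Egr and Nr4a genes (red) and 33 other immediate early genes (grey), from the edgeR fit with postnatal day as a block; filled points passed an adjusted p of 0.05 and the shaded band holds the middle 50% of all genes tested (-0.25 to 0.26). Fosb (4.98), Egr1 (2.98), Fos (2.72), Nr4a1 (2.18) and Btg2 (1.76) were the 5 called genes, and Myc (-0.94) was the lowest.

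The factors that act upstream of these families were not called. Of 16 genes for CREB, SRF, ELK and MEF2 factors and their coactivators, 15 were tested and 0 were called at 100% heptanal against control (median log2 fold change -0.03, 6 of 15 above 0). Those with the lowest p were Mef2a (0.48, edgeR adjusted p = 0.566) and Atf1 (-0.32, edgeR adjusted p = 0.579). The 5 partners Nab1, Nab2, Rxra, Rxrb and Rxrg likewise gave 0 calls. Nab2, itself a known EGR target, stood at 17.5 ± 5.24 CPM in control and 17.7 ± 6.15 at 100% heptanal (SD, n = 3; log2 fold change 0.01, edgeR adjusted p = 0.998). Of 12 genes known as targets of EGR or NR4A proteins in other tissues, 9 were tested and 0 were called, and the median was -0.03. All mice were taken after 1 hr of exposure, so later changes in targets were not measured. F3, the tissue factor gene, had the lowest p among them (log2 fold change 0.55, edgeR adjusted p = 0.362), and Arc, a synaptic target of EGR proteins in brain, stood at 4.42 to 7.12 CPM in control and 2.86 to 7.57 at 100% heptanal. Phosphorylation, through which CREB and ELK factors are switched on, is not visible in mRNA counts.

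The genes whose levels followed the members most closely were found by correlating log2 CPM, centred within each postnatal day, with the members' mean over the 9 mice. As a description, Pearson's r with that mean was 0.991 for Nr4a1, 0.988 for Egr1, 0.898 for Nr4a2, 0.795 for Egr4 and 0.688 for Egr2. Egr1 and Nr4a1 correlated at 0.974 with each other. Each member is itself part of that mean, which raises its own r, and the points share libraries and the separation of the 100% mice from the rest. The 5 other genes with the highest r were Actr1b (0.995), which encodes a dynactin subunit, Mtcp1 (0.993), Tsc22d1 (0.987), a leucine zipper regulator, Dusp14 (0.981), a phosphatase of the MAP kinase pathway, and Ubl3 (0.978), a ubiquitin-like protein. Their changes were smaller than that of Nr4a1. Tsc22d1 went from 1082 ± 123 CPM in control to 1220 ± 113 at 1% and 3224 ± 505 at 100% heptanal (SD, n = 3; log2 fold change 1.57, edgeR adjusted p = 0.00263). Dusp14 rose by a log2 fold change of 1.42 (edgeR adjusted p = 0.00361) and Ubl3 by 1.03 (edgeR adjusted p = 0.0199). Actr1b and Mtcp1 stood only 0.31 above control on the log2 scale and were not called (edgeR adjusted p of 0.397 and 0.608).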

How the data were processed

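The pS6-IP RNA of the OE of 9 mice was sequenced. Per the methods, the authors used Bowtie against mm10 and BEDTools for counting per gene, with separate models for odorant receptors and a rescue scheme for reads that fit several genes (versions are not given in the sources used here). The deposited table of each mouse has 21 columns and no header, and columns were identified from their values: column 2 was taken as counts of uniquely mapped reads and column 21 as the authors' estimated counts after rescue, neither normalized. Rescued reads were 23.9 to 30.5% of a library. Totals were 5438494 to 9707592 per mouse (median 7305895), at which 3 counts equal 0.309 to 0.552 CPM. Intervals and floors cover counting error only. No 2 mice of a group held the same counts within sampling noise.

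Rounded estimated counts of all 9 mice entered 1 edgeR quasi-likelihood fit (edgeR 4.0.16, R 4.3.3, TMM factors, filterByExpr defaults), with postnatal day as a block and Benjamini-Hochberg adjustment over the 14930 genes tested, at a threshold of 0.05. The study's text names edgeR but gives no design. Each SE was derived from the log2 fold change and its F statistic (their quotient after taking the root of F). The pairing comes from the day in the labels and the littermates in the methods. Deviations from the group means correlated at 0.155 to 0.730 between the 9 pairs of mice of the same day (mean 0.54). Between the 18 other pairs they correlated at -0.746 to 0.449 (mean -0.25), so the 2 ranges overlapped. Deviations within a group sum to 0, so a positive mean for the same day forces a negative one for the others. The second mean is therefore not separate evidence for the block. DESeq2 1.42.0 was an alternative. The fit was tested on simulated data. With the block, false calls were 7.19% of calls at 100% against control and 6.42% against 1%, above the threshold. Without the block there were none, and fewer of the changed genes were found. The simulated counts were drawn from the fit with the block, so they cannot show which design suits the real data. Within-day ratios used CPM + 0.5. Python 3.11.15 with numpy 2.4.6 ran the exact permutation test. Member coordinates and exon lengths came from GENCODE annotation of GRCm38, upstream sequences from RefSeq on GRCm38.p6.

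Named genes were the 7 members, list genes past the threshold or up to 4 per list by lowest p, and the 5 genes most alike the members. Nab2 and Arc were named besides this, after their values were seen. Members, lists and design were chosen with earlier results of these data known. No column of the authors' own comparisons was used.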

Additional observations from a re-analysis of the deposited data

How the results depend on the processing

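The results rest on 3 mice per group, and 20 other settings were fitted, 9 of them without 1 mouse and 3 without 1 day. Egr1 and Nr4a1 kept a positive log2 fold change at 100% heptanal in all 20, against control and against 1%. Without the day as a block the genes higher at 100% were 2 against control and 2 against 1%, with 0 members in either, and the log2 fold changes were 2.91 and 2.97 for Egr1 and 2.16 and 2.19 for Nr4a1. DESeq2 with the block called 230 genes higher and 36 lower against control, 184 and 27 against 1%, and 2 and 1 at 1% against control, with Nr4a2 at 1.10 and 1.54 now called. Its adjusted p for Egr4 against control was not given. Without the filter on low counts 74 genes were higher and 2 lower against control, 25 higher against 1%, and 1 higher at 1% against control. With only the 6 mice compared there were 152 higher and 13 lower against control and 2 higher against 1%, among them 1 member, and Nr4a1 stood at 2.17 (edgeR adjusted p = 0.249). At 1% against control Egr4 could not be fitted there, because without the 100% mice it did not pass the filter on low counts. Library size alone gave 28 higher. Scaling to the OSN markers gave 9694 lower against control, and 78 higher and 6613 lower against 1%. The near-zero differences at 1% changed sign, for Egr1 to -0.061 without the block and -0.19 with OSN scaling, and for Nr4a1 to 0.021 with library size alone. The cause of these shifts was not tested.

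Leaving out 1 mouse or 1 day, genes higher ranged from 1 (without the day 22 control mouse) to 62 against control and from 0 (without day 21) to 33 (without the day 18 mouse at 1%) against 1%. Genes lower ranged from 0 to 3 and from 0 to 2, and members called from 0 to 2 in both. Against control Egr1 ranged from 2.79 to 3.25, Nr4a1 from 1.85 to 2.37, Nr4a2 from 0.717 to 1.499, Egr4 from 1.82 to 4.30 and Egr2 from 0.44 to 2.35. Against 1% they ranged from 2.69 to 3.10 and from 1.85 to 2.43, Egr1 losing its call without day 22 or day 21 and Nr4a1 in 5 of 12 fits. At 1% against control Egr1 ranged from -0.17 to 0.40, Nr4a1 from -0.18 to 0.13, Egr2 from -0.49 to 1.26 and Egr4 from -1.88 to 1.57.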
